A study of Mus musculus with 6 samples.

Results

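Gfra1, Kit, Id4, Zbtb16, Sall4, Lin28a, Nanos3, Sohlh1, Sohlh2 and Stra8 are spermatogonial genes. They were followed in RNA recovered from mouse testis with an antibody to the protein PNMA4, in wild type and in knockouts that lack it. They were chosen by symbol, and all 10 were found once among 57010 gene IDs. PNMA4, listed as Moap1 in mouse gene tables, is a capsid-like protein descended from a retrotransposon, and the immunoprecipitation asked which RNA is recovered with it. For each library 8 testes were pooled from mice 3 months old, and dense particles were isolated from them on sucrose and then by density in iodixanol before the antibody to PNMA4 was added. The 3 wild-type libraries came from C57BL/6J mice. The 3 libraries lacking PNMA4 are the study's control for the antibody: replicates 1 and 2 came from Pnma4 knockout (Pnma4-/-) mice and replicate 3 from mice without Pnma1 and Pnma4 (Pnma1-/- Pnma4-/-), which is the only library of that double knockout. The strain of the knockouts is not stated in the labels, and each library pools the cells of whole testes. Input RNA was not analysed here, so the levels describe amounts recovered with the antibody, with no ratio to whole testis.

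Spermatogonia are the mitotic germ cells at the edge of the seminiferous tubule, and a small pool of them are the stem cells of sperm production. Sertoli cells hold the stem cells undifferentiated with the growth factor GDNF, which is read by the receptors GFRA1 and RET. Retinoic acid then drives them to switch on the receptor KIT, to divide as differentiating spermatogonia and finally to enter meiosis. Stra8, a target of retinoic acid, acts at that entry. The transcription regulators ID4, ZBTB16 (PLZF) and SALL4 and the RNA-binding proteins LIN28A and NANOS3 mark earlier steps of this path, and the paired basic helix-loop-helix factors SOHLH1 and SOHLH2 mark the later ones.

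Total counts ran from 3743015 to 6118126 in wild type and from 3138657 to 6367930 in libraries lacking PNMA4. The deleted genes matched the labels: Moap1 had 0 counts in all 3 libraries lacking PNMA4, and Pnma1 had 0 counts in the double knockout alone. The double knockout library stood apart from the rest. Ribosomal RNA-like genes held 66.3% of its counts, against 28.1% to 46.9% in the other 5, and its scaling factor by the trimmed mean of M-values (TMM) was 0.628, against 1.01 to 1.29. Levels are given as CPM, each count scaled to a common library size with its TMM factor, which puts the bulk of genes at the same level in each library. Lengths of the counted transcripts were not used here, so levels are compared between libraries and not between genes.

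No spermatogonial gene passed the test between wild-type and PNMA4-lacking immunoprecipitates. Of the 10 genes, 8 passed the filter on low counts and 2 did not, Sohlh1 and Nanos3. None of the 8 tested genes passed the quasi-likelihood F test of edgeR over 13413 genes (adjusted p = 1.00 for each), and none had an unadjusted p under 0.05. DESeq2, which gave a value for all 10, and limma-voom also called 0 of them. Over all genes edgeR called 8, or 0.0596%, with 3 higher in wild type (0.0224%) and 5 lower (0.0373%), and DESeq2 called 7 of 34610, or 0.0202%. An unadjusted p under 0.05 was found for 392 genes, or 2.92%, so a count of 0 among 8 genes is near the background. The median log2 fold change of wild type over lacking PNMA4 was -0.076 over the 8 genes and 0.012 over all genes tested, and 5 of the 8 were negative. These are immunoprecipitates of particles from bulk tissue, read without input RNA. Fewer cells of a type, less RNA per cell and lower recovery of particles or by the antibody therefore cannot be told apart. This holds for all values that follow.

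**Figure D1:**
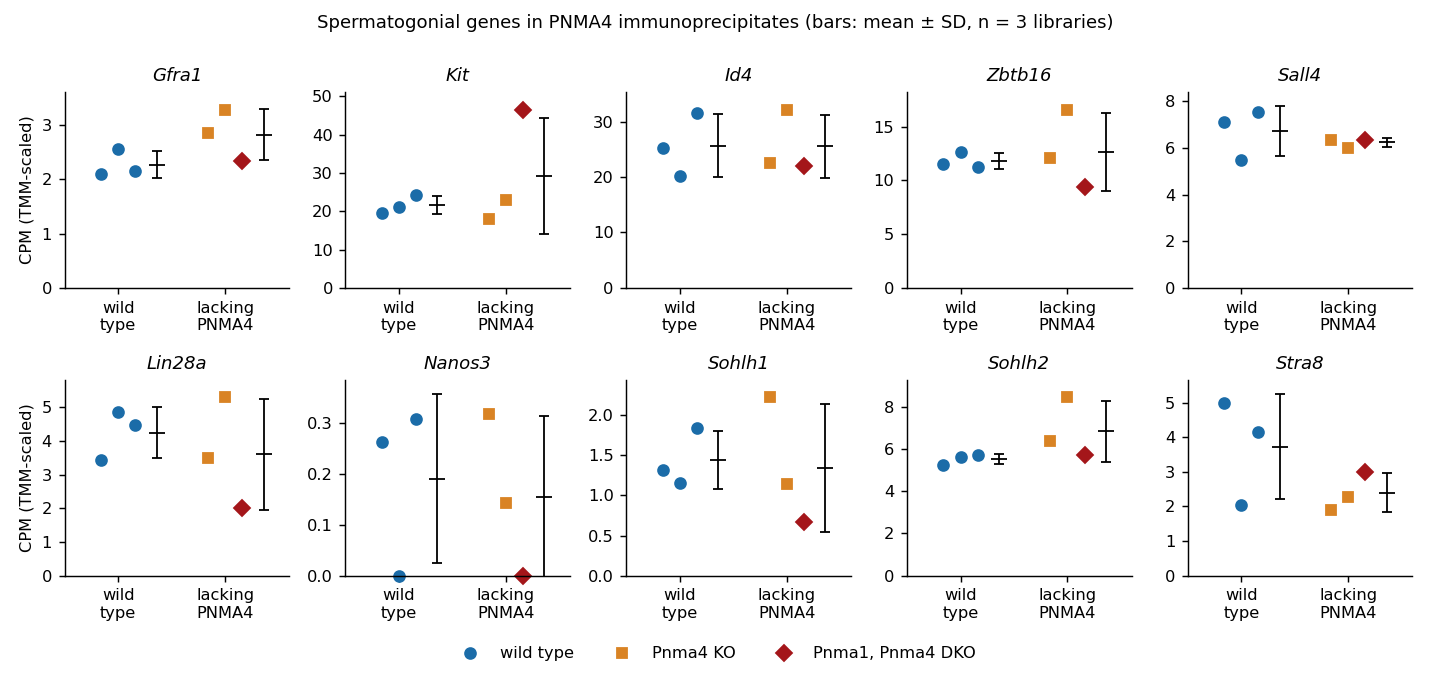
Level of each spermatogonial gene in CPM (vertical axes, each from 0) in the 3 wild-type libraries (blue circles) and the 3 libraries lacking PNMA4 (orange squares, Pnma4 knockout; red diamond, double knockout), with the mean ± SD of each group (n = 3) in black, cut at 0 for Nanos3. Wild-type and PNMA4-lacking libraries overlap for every gene except Sohlh2, whose groups lie 0.000477 CPM apart, and the double knockout stands out in Kit at 46.5 CPM.

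The receptors Gfra1 and Kit had overlapping levels with and without PNMA4, and the double knockout stood out in Kit. Gfra1, the GDNF co-receptor of the stem cell pool (ENSMUSG00000025089, at 58235581 to 58455946 on chromosome 19 of build GRCm38.p6, as for all positions here), yielded 8, 20 and 14 counts in the wild-type group, against 9, 23 and 7 in the group lacking PNMA4. That is 2.10, 2.56 and 2.15 CPM in wild type, against 2.86, 3.29 and 2.34 CPM in libraries lacking PNMA4. Only wild-type replicate 2 reached into the range of the other group. The log2 fold change was -0.33 (standard error 0.40, 95% interval -1.17 to 0.50), so a 2-fold decrease lay within its error at this depth. It was -0.18 without Pnma4 knockout replicate 2.

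Kit (ENSMUSG00000005672, chromosome 5, 75574987 to 75656722) is the receptor that marks differentiating spermatogonia. Its counts were 74, 165 and 158 in wild type and 57, 160 and 139 without PNMA4, and its levels were 19.5, 21.1 and 24.3 CPM in wild type, against 18.1, 22.9 and 46.5 CPM in libraries lacking PNMA4. The last value is that of the double knockout, and the other 5 libraries lay within 18.1 to 24.3 CPM. The log2 fold change was -0.41 (standard error 0.27, 95% interval -0.97 to 0.16, edgeR adjusted p = 1.00). Leaving out the double knockout turned it to 0.069, and leaving out Pnma4 knockout replicate 1 made it -0.65, with an unadjusted p under 0.05 (edgeR adjusted p = 1.00). The Kit gene is also transcribed outside spermatogonia, in Leydig cells and mast cells, and mouse spermatids make a short form, tr-KIT, from a start inside the gene. RefSeq lists Tr-kit among the synonyms of Kit, and a count per gene does not separate the forms.

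The regulators of undifferentiated spermatogonia were recovered with overlapping levels in both groups. Id4 (ENSMUSG00000021379, chromosome 13, 48261116 to 48266028) encodes an inhibitor of basic helix-loop-helix factors and is a marker of the stem cells. It had 96, 158 and 205 counts in the wild-type group, against 71, 225 and 66 in the group lacking PNMA4. Its levels of 25.2, 20.2 and 31.5 CPM in wild type, against 22.5, 32.1 and 22.1 CPM in libraries lacking PNMA4, averaged 25.6 ± 5.65 CPM in wild type and 25.6 ± 5.69 CPM in libraries lacking PNMA4 (SD, n = 3 each). High and low libraries occurred in both groups, and the log2 fold change was -0.017 with a 95% interval from -0.51 to 0.47.

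Zbtb16 (ENSMUSG00000066687, chromosome 9, 48651797 to 48836225), a zinc finger repressor needed to keep the stem cell pool, had 44, 99 and 73 counts in the wild-type group, against 38, 116 and 28 in the group lacking PNMA4. It stood at 11.6, 12.7 and 11.2 CPM in wild type, against 12.1, 16.6 and 9.36 CPM in libraries lacking PNMA4. The wild-type values fell between the lowest and the highest of the other group, and the log2 fold change was -0.13 (95% interval -0.67 to 0.40). Sall4 (ENSMUSG00000027547, chromosome 2, 168748332 to 168767201), a zinc finger regulator of undifferentiated and differentiating spermatogonia, had 27, 43 and 49 counts in the wild-type group, against 20, 42 and 19 in the group lacking PNMA4. Its levels were 7.10, 5.50 and 7.53 CPM in wild type, against 6.35, 6.00 and 6.35 CPM in libraries lacking PNMA4. The values without PNMA4 lay inside the wild-type range, and the log2 fold change was 0.10 (95% interval -0.53 to 0.73).

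The RNA-binding proteins of early spermatogonia were recovered in few reads. Lin28a (ENSMUSG00000050966, chromosome 4, 134003330 to 134019196), whose product blocks the maturation of let-7 microRNAs, had 13, 38 and 29 counts in the wild-type group, against 11, 37 and 6 in the group lacking PNMA4. Its levels were 3.42, 4.86 and 4.46 CPM in wild type, against 3.49, 5.29 and 2.01 CPM in libraries lacking PNMA4. The groups overlapped, with the lowest value in the double knockout, and the log2 fold change was 0.17 (95% interval -0.61 to 0.95).

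Nanos3 (ENSMUSG00000056155, chromosome 8, 84173733 to 84176552), which encodes a translational repressor of germ cells, had 1, 0 and 2 counts in the wild-type group, against 1, 1 and 0 in the group lacking PNMA4, or 5 counts in all. A count of 0 allows up to 0.384 CPM in wild-type replicate 2 and up to 1.00 CPM in the double knockout, taking 3 counts as the limit. No difference in Nanos3 could be detected at this depth, and it did not enter the edgeR test. Such limits cover counting error only.

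The factors of differentiation and meiotic entry included the highest log2 fold change among the members, that of Stra8, and none passed the test. Sohlh1 (ENSMUSG00000059625, chromosome 2, 25842995 to 25847248) had 5, 9 and 12 counts in the wild-type group, against 7, 8 and 2 in the group lacking PNMA4, too few for the filter. Its levels were 1.31, 1.15 and 1.84 CPM in wild type, against 2.22, 1.14 and 0.669 CPM in libraries lacking PNMA4, and the wild-type values lay inside the range of the other group. Its partner Sohlh2 (ENSMUSG00000027794, chromosome 3, 55182044 to 55209957) had 20, 44 and 37 counts in the wild-type group, against 20, 59 and 17 in the group lacking PNMA4.

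Sohlh2 stood at 5.26, 5.63 and 5.68 CPM in wild type, against 6.35, 8.43 and 5.68 CPM in libraries lacking PNMA4. It was the only tested member whose groups did not overlap, by a gap of 0.000477 CPM between wild-type replicate 3 and the double knockout, which is far less than 1 count. That is 1 of 8 tested members, or 12.5%, where 6.69% of all tested genes had groups that did not overlap, 3.41% with the group lacking PNMA4 above, as for Sohlh2, and 3.28% with wild type above. The log2 fold change was -0.33 with a 95% interval from -0.97 to 0.30 (edgeR adjusted p = 1.00), and it was -0.12 without Pnma4 knockout replicate 2.

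Stra8 (ENSMUSG00000029848, chromosome 6, 34920163 to 34939344), the retinoic acid target that opens meiosis, had 19, 16 and 27 counts in the wild-type group, against 6, 16 and 9 in the group lacking PNMA4. It stood at 4.99, 2.05 and 4.15 CPM in wild type, against 1.90, 2.29 and 3.01 CPM in libraries lacking PNMA4. Wild-type replicates 1 and 3 lay above all libraries lacking PNMA4, and wild-type replicate 2 lay among them. The log2 fold change of 0.59 was the highest of the tested members (standard error 0.43, 95% interval -0.30 to 1.48, edgeR adjusted p = 1.00), and a 2-fold increase lay within its error. It was 0.36 without wild-type replicate 1 and 0.93 without wild-type replicate 2, where the unadjusted p was just under 0.05 (edgeR adjusted p = 1.00 for both).

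**Figure D2:**
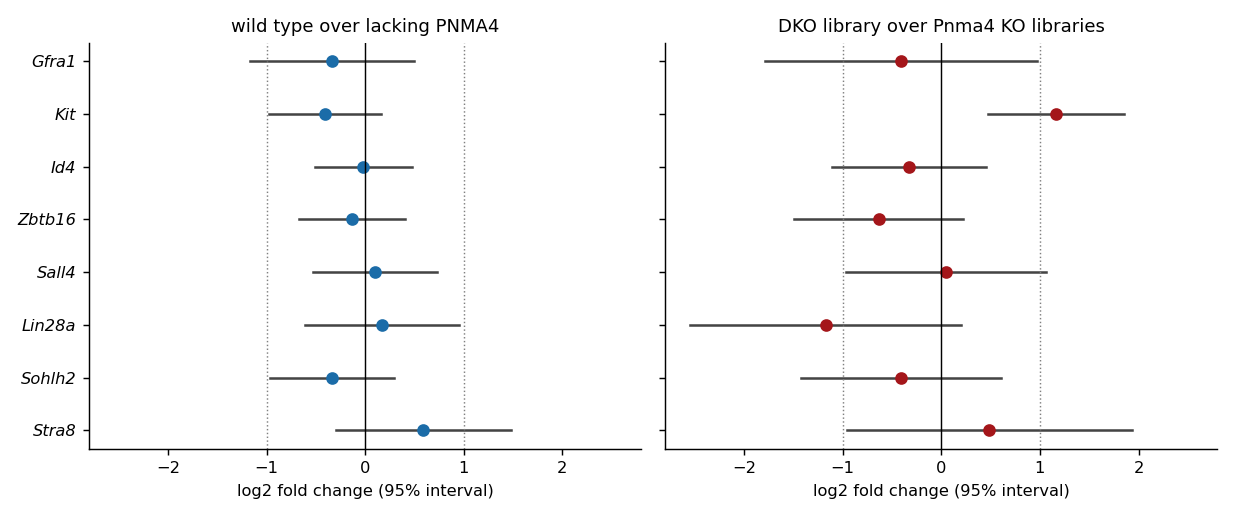
Log2 fold changes (horizontal axes) with their 95% intervals from edgeR for the 8 tested spermatogonial genes, for wild type over lacking PNMA4 on the left and for the double knockout library over the Pnma4 knockout libraries on the right. Dotted lines mark a 2-fold difference. All intervals on the left span 0, and on the right only that of Kit, from 0.48 to 1.86, does not.

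The intervals show what the depth allows. In 6 of the 8 tested members the 95% interval reached less than 2-fold up or down. The exceptions were Gfra1 and Stra8, which had 81 and 93 counts over all 6 libraries. Among all tested genes 71.1% had an interval this narrow, against 75% of the members.

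The spread between libraries was set beside the SD that counting alone would give, which at low counts depends mainly on depth. In wild type the SD between the 3 libraries exceeded the counting value for 3 genes, Id4, Kit and Stra8. For Id4 it was 5.65 CPM against 2.14 CPM from counting, and for Stra8 1.52 CPM against 0.788 CPM. In libraries lacking PNMA4, which hold both knockout genotypes, it exceeded counting for 6 genes, and the gap was widest for Kit, at 15.2 CPM against 2.68 CPM. For Nanos3, Gfra1 and Sall4 the observed SD was below the counting value in both groups.

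**Figure D3:**
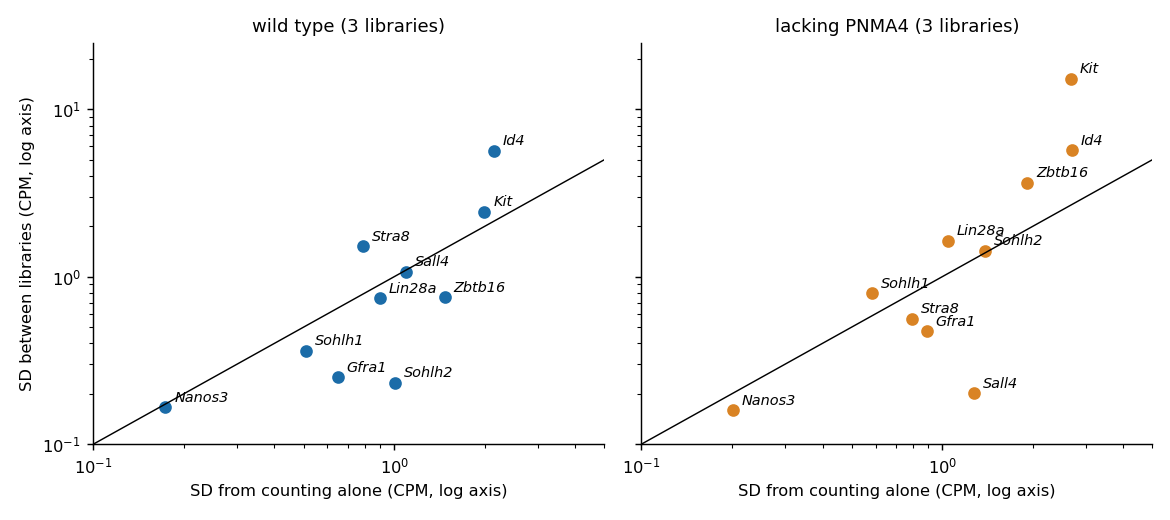
SD between the 3 libraries of a group (vertical axis, CPM) against the SD expected from read counting alone (horizontal axis, CPM), both on log axes, for the 10 spermatogonial genes, with wild type on the left and lacking PNMA4 on the right. The line marks equality. Kit in the libraries lacking PNMA4 lies furthest above it, at 15.2 CPM against 2.68 CPM.

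Summed over all 10 genes, the level was 80.7, 75.7 and 93.1 CPM in wild type, against 76.2, 98.1 and 98 CPM in libraries lacking PNMA4. The groups overlapped, with means of 83.2 ± 8.95 CPM in wild type and 90.8 ± 12.6 CPM in libraries lacking PNMA4 (SD, n = 3 each). Leaving Kit out, the sum averaged 61.6 ± 7.11 CPM in wild type, against 61.6 ± 12.3 CPM in libraries lacking PNMA4. The double knockout then had the lowest sum of all 6 libraries, 51.5 CPM, whereas with Kit it was among the highest.

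Kit was the only tested member whose 95% interval for the double knockout over the Pnma4 knockouts did not span 0. At 46.5 CPM in the double knockout, against 18.1 and 22.9 CPM in the Pnma4 knockouts, the log2 fold change of Kit came to 1.17 (standard error 0.34, 95% interval 0.48 to 1.86). This did not pass the test (edgeR adjusted p = 0.329), and 0 of the 8 tested members did, in a fit that takes the single double knockout library to vary like the other genotypes. In the same contrast 10 of 13413 genes were called, or 0.0746% (5 higher and 5 lower in the double knockout, 0.0373% each), and 830 had an unadjusted p under 0.05, or 6.19%, Kit alone among the members. Among all tested genes 67, or 0.50%, had a p as low as that of Kit, and 327, or 2.44%, a log2 fold change as high.

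The scaling bears on the size of this difference. As CPM of all counts with no scaling factor, Kit stood at 29.1 in the double knockout and at 18.2 and 25.1 in the Pnma4 knockouts, and at 19.8, 27.0 and 25.9 in wild type. Without scaling factors the log2 fold change of Kit was 0.41, while the median of all genes fell by 0.76, so that Kit lay 1.17 above that median. Its direction was the same in all 13 alternatives run for this contrast, with log2 fold changes from 0.41 to 1.33 and edgeR, DESeq2 or limma-voom adjusted p from 0.0874 to 0.889.

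Other members pointed the opposite way in the double knockout library. Lin28a stood at 2.01 CPM there, against 3.49 and 5.29 CPM in the Pnma4 knockouts (log2 fold change -1.17, 95% interval -2.55 to 0.20, edgeR adjusted p = 0.891). Zbtb16 stood at 9.36 CPM, against 12.1 and 16.6 CPM (log2 fold change -0.64, 95% interval -1.49 to 0.22, edgeR adjusted p = 0.954). Sohlh1 was also lowest there at 0.669 CPM, from 2 counts. Of the 8 tested members 5 had a log2 fold change below 0, where 50.5% of all tested genes did. In the double knockout 2 of the 8 lay below all other libraries, or 25%, against 21.4% of all tested genes, and 1 lay above all, or 12.5%, against 22.8%. These shares are near the background of a library that stands apart in many genes.

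Relative to the bulk of genes, markers of somatic testis cells were higher in that library, as Kit was. Their levels, like that of Kit, rest on the TMM factor of 0.628 of that library. Without scaling factors the ratio of Kit to the other 5 libraries was 1.25, and the marker sums were not computed. Markers of Leydig cells (18 genes) summed to 836 CPM in the double knockout library, against 390 ± 28.5 CPM in the other 5 libraries (SD, n = 5), a ratio of 2.15 beside 2.2 for Kit. All 17 tested Leydig cell markers had a positive log2 fold change over the Pnma4 knockouts, and 1, the prostaglandin synthase gene Ptgds, passed the test (log2 fold change 2.18, edgeR adjusted p = 0.00471). Summed Sertoli cell markers stood at 624 CPM in the double knockout and 367 ± 37.5 CPM in the other 5, and peritubular and stromal markers at 118 CPM in the double knockout and 76.0 ± 8.26 CPM in the other 5. Of 19 tested Sertoli cell markers 18 had a positive log2 fold change in this contrast, and of 9 tested peritubular and stromal markers 8. Among all tested genes 6640 of 13413 were positive, and 22.8% lay above all other libraries in the double knockout. The part of these cells in the level of Kit was not tested.

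Mast cells and spermatids also express Kit. The mast cell genes named here were near 0, and the marker lists that cover these cells had their highest sums in the double knockout. The mast cell genes Mcpt4, Ms4a2 and Fcer1a had 0 counts in all 6 libraries, while Cma1 and Tpsb2 had 1 count each in the double knockout. The full list of 16 macrophage and mast cell markers summed to 34.4 CPM in the double knockout and 26.5 ± 3.20 CPM in the other 5. The highest of those 5 stood at 31.4 CPM. Spermatid markers summed to 2968 CPM in the double knockout and 2551 ± 212 CPM in the other 5, of which the highest stood at 2842 CPM. Of these markers 11 of 22 had a positive log2 fold change over the Pnma4 knockouts. The part of mast cells and spermatids in the level of Kit was not tested. Kitl, which encodes the ligand of KIT on Sertoli cells, stood at 26.1 CPM in the double knockout and at 19.4 and 25.6 CPM in the Pnma4 knockouts. In wild type it stood at 9.20, 16.4 and 33.0 CPM, so the double knockout lay within the range of the other 5 libraries.

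**Figure D4:**
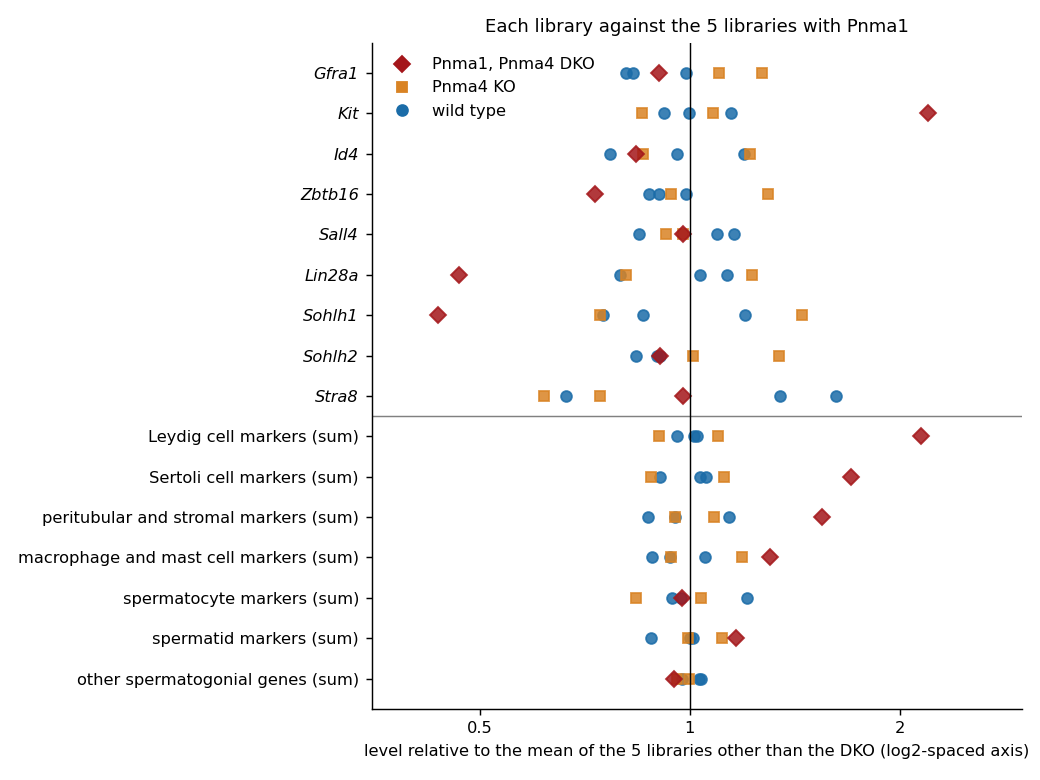
Level in each library divided by the mean of the 5 libraries other than the double knockout (horizontal axis, log2-spaced), for 9 spermatogonial genes and, below the line, for summed marker lists. Red diamonds are the double knockout, orange squares the Pnma4 knockouts and blue circles wild type. Nanos3 is left out for its low counts. Kit lies at 2.2 and the Leydig cell sum at 2.15 in the double knockout, while Lin28a and Sohlh1 lie at 0.466 and 0.436.

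Other genes of spermatogonia likewise gave no call between wild type and lacking PNMA4. Of 36 further spermatogonial genes 20 were tested and 0 passed edgeR in either direction, none with an unadjusted p under 0.05, and their median log2 fold change was 0.072. Their summed level ran from 524 to 573 CPM over the 6 libraries, and the double knockout stood at 0.949 times the mean of the others. A sum is weighted to its highest genes: of 569 CPM in wild-type replicate 1, Dmrtb1 held 154 CPM and Uhrf1 119 CPM. Single genes departed from this sum. Over the Pnma4 knockouts 8 of the 20 had a positive log2 fold change in the double knockout and 12 a negative one. Itga6 stood at 15.0 CPM there and at 6.38 ± 0.674 CPM in the other 5 libraries, a ratio of 2.36. Egr4 and Dnd1 departed the other way, at ratios of 0.459 and 0.326, the latter from 2 counts in the double knockout. Dmrtb1, a gene of late spermatogonia, averaged 127 ± 30.6 CPM in wild type, against 120 ± 9.5 CPM in libraries lacking PNMA4. Uhrf1, which helps to copy DNA methylation, averaged 111 ± 15.5 CPM in wild type, against 102 ± 16.9 CPM in libraries lacking PNMA4 (SD, n = 3 each). At the other end Neurog3 and Rhox10 had 0 counts in all libraries, and Nanos2 had 2 counts in all.

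No gene of the surrounding pathways passed the test. In the GDNF and RET pathway 0 of 9 tested genes passed (median log2 fold change 0.15), in the KIT pathway 0 of 12 (-0.11), in the retinoic acid pathway 0 of 14 (-0.042), among LIN28 and let-7 genes 0 of 10 (0.15), among NANOS partners 0 of 11 (-0.14) and among paralogs of the members 0 of 11 (0.14), beside a median of 0.012 over all tested genes. Several members also stand in these lists. In all of them 1 gene had an unadjusted p under 0.05, Meiosin, the partner of STRA8 at meiotic entry. It stood at 6.83, 10.5 and 7.22 CPM in wild type, against 4.44, 5.14 and 6.02 CPM in libraries lacking PNMA4, so the groups did not overlap (log2 fold change 0.67, edgeR adjusted p = 1.00). Of 63 distinct tested genes of these lists 5 had groups that did not overlap, or 7.94%, against 6.69% of all tested genes: wild type lay above for Meiosin, Gfra2, Bcl6b and Hmga2 and below for Zbtb7b. The ligand Gdnf had 2, 8 and 10 counts in the wild-type group, against 2, 8 and 4 in the group lacking PNMA4, and its signalling receptor Ret had 2, 14 and 5 counts in wild type, against 5, 3 and 5, so that neither passed the filter. Meiosin, Bcl6b, Hmga2, Zbtb7b, Gdnf, Ret, Kitl, Itga6, Egr4, Dnd1 and the genes at or near 0 were named after their values were seen.

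As a check of other tissue, 11 markers of the epididymis, the duct next to the testis, summed to 17.4 ± 3.17 CPM in wild type, against 29.7 ± 8.33 CPM in libraries lacking PNMA4 (SD, n = 3 each). The sum was 38.5 CPM in the double knockout, against 28.9 and 21.9 CPM in the Pnma4 knockouts, and the double knockout stood at 1.87 times the mean of the other 5 libraries. Of 4 tested, 1 passed the test, Crisp1, a sperm-coating protein gene, lower in wild type (log2 fold change -3.57, edgeR adjusted p = 0.00244). The part of epididymal RNA in the members' levels was not tested. Markers of spermatocytes, the meiotic cells that follow spermatogonia, gave 0 calls among 25 tested.

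Some members share their position with other genes. In RefSeq, 4 of the 10 members overlap another gene: Id4 and Sall4 each overlap a long noncoding RNA that had 0 counts in all libraries, and Zbtb16 and Gfra1 overlap predicted genes that have no row of their own under those symbols. The sources do not state whether counting used strand, so reads of overlapping genes cannot be told apart.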

How the data were processed

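The deposited table of whole-number counts per Ensembl gene ID was used, with all 6 columns matched to libraries by name. The submitters' processing notes list bcl2fastq 2.20, STAR 2.5.2b, featureCounts, DESeq2 and GRCm38, with no role stated. Annotation release and multi-mapping rules are not stated. Coordinates came from a RefSeq table of GRCm38.p6, where all 10 symbols matched.

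All genes were fitted together in edgeR 4.0.16 (R 4.3.3) by its quasi-likelihood F test, after filterByExpr (minimum count 10, minimum total 15), with TMM scaling and Benjamini-Hochberg adjustment at 0.05 over 13413 genes. The design text names mice lacking Pnma4 the control, so wild type is on top of each fold change, and the double knockout entered as replicate 3 of that control, as its title says. Standard errors were computed as |log2 fold change| over the square root of F. A second fit with 3 genotypes gave the contrast of the double knockout with the Pnma4 knockouts. Counting SDs take each count as Poisson. DESeq2 1.42.0 and limma 3.58.1 were alternatives, beside other scalings and filters, the replicate block and each library left out. The model script was checked on simulated data. Averaged over genes, with ribosomal RNA-like genes included, no 2 libraries agreed within sampling noise (chi-square per gene of at least 8.60). Such an average can be carried by the genes of highest count.

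The design text calls the preparations biological replicates. The members and the other 15 gene lists were chosen with earlier results of these data known. All 10 members are named, and from each other list the genes called over all genes (at most 4) or otherwise the 2 tested genes of highest mean CPM could be named. Exceptions are stated.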

Additional observations from a re-analysis of the deposited data

How the results depend on the processing

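In each of 15 alternatives (other tools, scalings, filters, the replicate block and each library left out) 0 of the 10 members were called for wild type over lacking PNMA4, and in each of 13 for the double knockout over the Pnma4 knockouts. The log2 fold changes of single members under the alternatives of that contrast were added after seeing the data. Over all genes the 8 calls were 31 without the filter on low counts, 3 with the stricter filter (CPM above 5 in at least 3 libraries), and 8 to 18 with 1 library left out, the highest without the double knockout. The stricter filter tested 5 members. With the replicate block 7 genes and 0 members were called, and the members' median log2 fold change was -0.059. Same-numbered libraries of both groups did not deviate together across genes (correlations 0.046, -0.072 and 0.10), so the numbers were not taken as pairs. The block changed no call of a member. Without scaling factors the median of all genes was 0.31, the members' median 0.19 and the log2 ratio of their summed levels 0.18 in place of -0.13. The signs of Id4 (0.24), Kit (0.0069) and Zbtb16 (0.14) turned there too, all below the shift of 0.31, and in the double knockout contrast, where the shift was -0.76, those of Sall4 (-0.71) and Stra8 (-0.28). With 1 library left out, the members' median ran from -0.15 to 0.10 and the log2 ratio of sums from -0.24 to -0.057. The same settings gave Id4 a log2 fold change from -0.20 to 0.20, Kit from -0.65 to 0.069, Sall4 from -0.00017 to 0.24, Lin28a from -0.071 to 0.63 and Zbtb16 from -0.30 to 0.14, and Sall4 in the double knockout contrast from -0.025 to 0.080. Kit turned positive and Lin28a negative without the double knockout library. For wild type over lacking PNMA4, Sohlh2 (-0.44 to -0.12 with 1 library left out), Gfra1 (-0.44 to -0.18) and Stra8 (0.36 to 0.93) kept their direction in every alternative that tested them. The cause was not tested. The low counts of Nanos3 and Sohlh1 limit what can be said of them.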
